A study of Homo sapiens with 6 samples.

Results

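The genes described here are metallothioneins, the metal-sensing factor MTF1 and a pair of metal exporters, SLC30A1 and SLC30A10. They were chosen by gene symbol in a table of raw read counts with 36458 symbols. The rule named 10 genes, of which 9 were measured: MT1E, MT1F, MT1M, MT1X, MT2A, MT3, MTF1, SLC30A1 and SLC30A10. MT1G was not analysed here. The cells were DMS114, a human line grown from a small cell lung cancer. They received 2.5 mM β-alanine, an amino acid outside the protein code, or an equal amount of vehicle for 48 h, and polyadenylated RNA was sequenced from 3 libraries per condition. Both groups are the same line with no genetic change named in the labels. The labels do not say that libraries came from separate cultures, so p-values cover the spread between libraries alone, and that spread may be technical. The comparison asks which of these genes differ in RNA level between the treated and the control cells.

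Metallothioneins are very small proteins in which many cysteines hold zinc, copper or cadmium, and they buffer free zinc in the cytosol. MTF1 is a zinc finger transcription factor that binds short metal response elements when zinc rises, and it drives metallothionein genes and SLC30A1. SLC30A1 (ZnT1) carries zinc out through the plasma membrane, while ZIP importers of the SLC39 family bring it into the cytosol. SLC30A10 belongs to the same ZnT family and is best known as a manganese exporter. Glucocorticoids and oxidants also raise metallothionein RNA in many cells.

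The metallothionein genes lie in a cluster on chromosome 16 and are close copies of each other, which bears on how reads are assigned to them. The reading frames of 5 measured members are shown. They are the frames of the length that these 5 genes share in GENCODE release 29 (GRCh38), run from start to stop codon, 5′ to 3′, and capitals mark bases that differ from MT2A at the same position.
MT2A: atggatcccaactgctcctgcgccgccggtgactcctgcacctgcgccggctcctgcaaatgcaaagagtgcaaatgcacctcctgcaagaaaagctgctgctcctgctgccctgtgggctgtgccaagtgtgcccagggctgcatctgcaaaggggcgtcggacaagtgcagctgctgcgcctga
MT1E: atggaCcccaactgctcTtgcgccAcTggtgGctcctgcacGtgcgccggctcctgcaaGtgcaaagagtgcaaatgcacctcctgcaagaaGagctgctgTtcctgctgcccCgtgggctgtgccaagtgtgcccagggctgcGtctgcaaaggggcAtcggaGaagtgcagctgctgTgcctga
MT1F: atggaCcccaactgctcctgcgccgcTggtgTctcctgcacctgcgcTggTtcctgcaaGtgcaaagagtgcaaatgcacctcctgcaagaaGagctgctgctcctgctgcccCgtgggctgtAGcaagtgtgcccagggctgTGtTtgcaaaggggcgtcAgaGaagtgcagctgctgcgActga
MT1M: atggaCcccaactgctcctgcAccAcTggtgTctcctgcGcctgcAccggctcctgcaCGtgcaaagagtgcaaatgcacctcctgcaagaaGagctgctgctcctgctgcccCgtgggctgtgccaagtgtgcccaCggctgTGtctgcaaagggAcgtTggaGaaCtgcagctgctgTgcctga
MT1X: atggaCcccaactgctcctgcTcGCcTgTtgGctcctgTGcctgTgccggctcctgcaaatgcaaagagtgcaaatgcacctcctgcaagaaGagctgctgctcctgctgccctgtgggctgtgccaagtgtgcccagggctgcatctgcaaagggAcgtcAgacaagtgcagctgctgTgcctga
All 5 frames are 186 bases long, and each holds 20 codons for cysteine among its 62 codons, stop included. Identity with MT2A ran from 89.8% for MT1M to 92.5% for MT1E and MT1X, and the least alike pair was MT1F with MT1X, at 88.7%. Of all 50-base words in the annotated transcripts of each gene, 3.02% in MT2A, 7.1% in MT1E, 1.22% in MT1F, 9.87% in MT1M also occur in a transcript of another gene. At 100 bases the share was 0 for these 4 genes. For MT1X it was 18.3% at 50 bases and 11.3% at 100 bases, where the only other gene was the overlapping transcript AC026461.1 on the same strand. The sources used here give neither the read length nor the treatment of reads with several matches, so counts of single metallothionein genes are uncertain.

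The stretch of 250 bases before the RefSeq transcript start (GRCh38.p14) is shown for the 3 members whose stretch holds the core of the metal response element, because MTF1 acts through that core. The core was searched as TGCACNC and TGCGCNC on both strands, and capitals mark each match, which on the other strand reads as the reverse complement.
MT2A, chr16:56608334-56608583, plus strand: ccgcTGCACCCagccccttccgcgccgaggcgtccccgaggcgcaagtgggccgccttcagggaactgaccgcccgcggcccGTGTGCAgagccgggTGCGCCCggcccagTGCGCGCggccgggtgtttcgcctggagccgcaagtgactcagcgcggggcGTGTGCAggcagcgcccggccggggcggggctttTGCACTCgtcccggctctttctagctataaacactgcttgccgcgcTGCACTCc
MT1X, chr16:56682220-56682469, plus strand: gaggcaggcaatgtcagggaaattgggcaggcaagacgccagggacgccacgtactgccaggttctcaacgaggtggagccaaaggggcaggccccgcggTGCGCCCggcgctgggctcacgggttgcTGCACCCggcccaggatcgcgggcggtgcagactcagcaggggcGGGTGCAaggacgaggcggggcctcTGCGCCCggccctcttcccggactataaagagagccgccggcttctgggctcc
SLC30A1, chr1:211579162-211579411, minus strand: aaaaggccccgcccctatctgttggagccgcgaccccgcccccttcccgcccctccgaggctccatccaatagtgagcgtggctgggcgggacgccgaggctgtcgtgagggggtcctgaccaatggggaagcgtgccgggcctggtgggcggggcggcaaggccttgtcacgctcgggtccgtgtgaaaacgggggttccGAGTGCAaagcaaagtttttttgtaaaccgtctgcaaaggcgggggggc
The MT2A stretch held 7 matches, 5 on its own strand and 2 on the other. The MT1X stretch held 4, and that of SLC30A1 held 1, on the other strand, starting 49 bases before the transcript start. Of 35116 such stretches in the RefSeq table, 24.8% held at least 1 match, 0.37% at least 4 and 0.0313% at least 7. MTF1 had 0 matches, as had both stretches listed for SLC30A10. Stretches were found for 5 of the 9 measured members. A match describes letters and is no evidence of binding.

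Total counts ran from 14433801 to 32909568 per library, so that 1 count stood for 0.03 to 0.0696 CPM (counts per 1e+06 counts, with totals scaled by TMM). On the first principal component of all tested genes (44.5% of variance), β-alanine library 1 scored 9.13 and stood apart from the other treated libraries, which scored 23.5 and 23.6, with controls at -20, -19.5 and -16.7. It was also the shallowest library, and each member is given with and without it where its call changes. In the lists of defining markers, INSM1 was below 1 CPM in every library, while CHGA, SYP and ENO2 gave most of the summed level of 7 neuroendocrine markers, 206 to 220 CPM after β-alanine and 181 to 191 CPM in controls. The higher sum after β-alanine came from CHGA and SYP, each higher in every treated library than in any control. ENO2 overlapped between groups, at 94.1 to 97.65 CPM after β-alanine and 97.2 to 101.1 CPM in controls. NCAM1 was lower in every treated library, at 1.41 to 1.60 CPM against 2.09 to 2.65 CPM. YAP1 stood at 120 to 134 CPM. Summed over 6 fibroblast markers, the level was 882 to 982 CPM after β-alanine and 1120 to 1160 CPM in controls, led by COL3A1, with COL1A2 at 0 to 5 counts. The part of these marker shifts in the results below was not tested. The 4 endothelial markers summed to 0.182 to 0.255 CPM and the 3 measured blood markers to at most 0.204 CPM.

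After β-alanine, MT1F and the zinc exporter SLC30A1 were higher, each close to the threshold, whereas MT2A, the metallothionein member with the most counts, was not called, with a log2 change between -0.29 and 0.17 (95% interval). Of the 9 measured members, 6 had enough counts for the test, which was edgeR's quasi-likelihood test over all genes with Benjamini-Hochberg adjustment. Of these 6, 2 rose, none fell and 4 did not pass. Over all 17331 genes tested, 27.9% were called and 14.1% rose. The median log2 change was 0.10 over the 6 members and -0.0032 over all genes tested. MT1M, MT3 and SLC30A10 had too few counts in both groups.

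**Figure D1:**
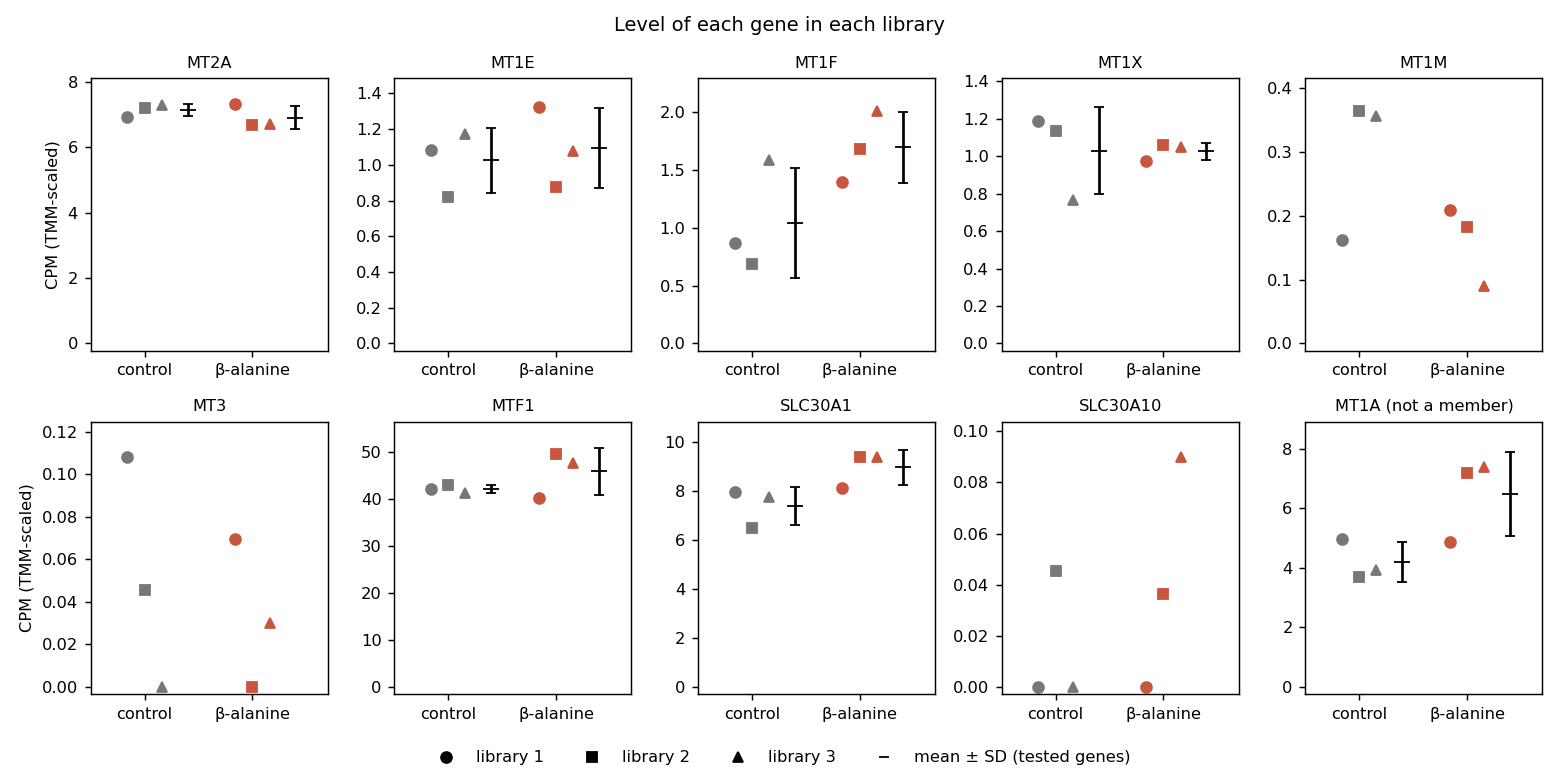
Level of each gene in each library, in CPM scaled by TMM, on axes from 0. Points are libraries (circle, square and triangle for libraries 1, 2 and 3), grey for control and red for β-alanine, and black bars are the mean ± SD of 3 libraries for tested genes. SLC30A1 is the tested member whose groups do not overlap, from 6.50 to 7.95 CPM in controls and 8.15 to 9.41 CPM after β-alanine.

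MT2A encodes the most widely expressed human metallothionein. It lies on chromosome 16 from 56608584 to 56609497 (GRCh38.p14, RefSeq). It stood at 6.92, 7.19 and 7.29 CPM in control libraries 1, 2 and 3, and at 7.31, 6.67 and 6.71 CPM in β-alanine libraries 1, 2 and 3. The highest value of all came from β-alanine library 1, the other 2 treated libraries were the lowest, and the groups overlapped. The control mean was 7.13 ± 0.191 CPM and the treated mean 6.90 ± 0.356 CPM (SD, n = 3 each), with a log2 change of -0.06 ± 0.11 (SE), with an adjusted p of 0.737. With 105 to 224 counts per library this was the most precisely measured metallothionein member.

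MT1F, another cytosolic metallothionein, lies on chromosome 16 from 56657959 to 56659303. It had 16, 15 and 31 counts in control libraries 1, 2 and 3, and 20, 46 and 67 in the β-alanine libraries. This gave 0.865, 0.682 and 1.58 CPM in controls and 1.39, 1.68 and 2.01 CPM after β-alanine. Control library 3 lay above β-alanine library 1, so the groups overlapped. The means were 1.04 ± 0.475 and 1.69 ± 0.308 CPM (SD, n = 3 per group). MT1F rose by a log2 of 0.75 ± 0.28 (SE, 95% interval 0.18 to 1.33), with an adjusted p of 0.0421. Without control library 3 the log2 change was 1.18 (adjusted p = 0.00752), and without control library 2 it was 0.50 (adjusted p = 0.252). Leaving out β-alanine library 2 (adjusted p = 0.0919), β-alanine library 3 (0.207) or control library 1 (0.14) also ended the call, and without β-alanine library 1 it held (0.0121).

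MT1E and MT1X, which encode metallothioneins of the same type, did not pass the test. MT1E, on chromosome 16 from 56625781 to 56627112, stood at 1.08, 0.819 and 1.17 CPM in control libraries 1, 2 and 3 and at 1.32, 0.875 and 1.08 CPM in the β-alanine libraries. Its log2 change was 0.06 ± 0.27 (SE, 95% interval -0.51 to 0.62), with an adjusted p of 0.905. MT1X, from 56682470 to 56684196, stood at 1.19, 1.14 and 0.765 CPM in controls and at 0.975, 1.06 and 1.05 CPM after β-alanine. Its log2 change was 0.01 ± 0.27 (SE, 95% interval -0.55 to 0.56), with an adjusted p of 0.99. In both genes the libraries of the groups were interleaved. With 14 to 36 counts per library in these genes, changes of either direction within these intervals remain possible. The overlap of MT1X with AC026461.1 adds to the uncertainty of its count.

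MT1M and MT3 were near the detection floor. MT1M, on chromosome 16 from 56632659 to 56633981, had 3, 8 and 7 counts in control libraries 1, 2 and 3 and 3, 5 and 3 after β-alanine. Pooled over libraries this was 0.2995 CPM in controls (95% exact Poisson interval 0.177 to 0.473) and 0.146 CPM after β-alanine (0.0731 to 0.262), intervals that overlap and cover counting error only. MT3, a metallothionein of the brain, lies from 56589528 to 56591085. It had 2, 1 and 0 counts in controls and 1, 0 and 1 after β-alanine, or 0.0499 CPM (0.0103 to 0.146) and 0.0266 CPM (0.00322 to 0.0961) when pooled. The count of 0 in control library 3 allows up to 0.153 CPM, and that in β-alanine library 2 up to 0.109 CPM. The astrocyte markers GFAP and AQP4 had at most 1 count in any library.

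Summed over the 6 measured metallothionein members, the level was 10.3, 10.2 and 11.2 CPM in control libraries 1, 2 and 3 and 11.3, 10.5 and 10.97 CPM in the β-alanine libraries. The groups overlapped, with means of 10.6 ± 0.514 and 10.9 ± 0.409 CPM (SD, n = 3 per group). The sum does not depend on how counted reads were split among these 6 genes. Reads that were lost, or counted on other rows, would change it. It leaves out MT1A, which is no member. Without MT2A the sum was 3.44 ± 0.415 CPM in controls and 4.00 ± 0.233 CPM after β-alanine, and control library 3, at 3.88 CPM, lay above β-alanine library 2, at 3.79 CPM.

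MTF1, the transcription factor itself, lies on chromosome 1 from 37809574 to 37859592. It stood at 42.2, 43.0 and 41.4 CPM in control libraries 1, 2 and 3 and at 40.3, 49.6 and 47.8 CPM in the β-alanine libraries. β-alanine library 1 lay below every control and libraries 2 and 3 above every control. The control mean was 42.2 ± 0.812 CPM and the treated mean 45.9 ± 4.94 CPM (SD, n = 3 each), with a log2 change of 0.13 ± 0.06 (SE), which did not pass (adjusted p = 0.128). Without β-alanine library 1 the log2 change was 0.20 ± 0.05, with an adjusted p of 0.00199. A processed pseudogene, AL929472.4, lies within the gene body on the opposite strand, and whether reads were counted by strand is not known here.

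SLC30A1, the zinc exporter of the plasma membrane, lies on chromosome 1 from 211571568 to 211579161. It stood at 7.95, 6.50 and 7.75 CPM in control libraries 1, 2 and 3 and at 8.15, 9.41 and 9.38 CPM in the β-alanine libraries. All 3 treated libraries lay above all 3 controls, although β-alanine library 1 exceeded control library 1 by little. Of the 6 tested members it was the one whose groups did not overlap, against 39.1% of all genes tested, 19.9% with β-alanine higher. The means were 7.40 ± 0.783 and 8.98 ± 0.722 CPM (SD, n = 3 per group). SLC30A1 rose by a log2 of 0.30 ± 0.11 (SE, 95% interval 0.07 to 0.53), with an adjusted p of 0.0481. Without β-alanine library 1 the change was 0.35 on the log2 scale (adjusted p = 0.012). It was no longer called when β-alanine library 2 (adjusted p = 0.17) was left out, nor without β-alanine library 3 (0.167), control library 1 (0.0527), control library 2 (0.263) or control library 3 (0.0749). The DESeq2 Wald test on all libraries did not call it either (0.122).

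SLC30A10, the manganese exporter, lies on chromosome 1 from 219910445 to 219959098. It had 0, 1 and 0 counts in control libraries 1, 2 and 3 and 0, 1 and 3 in the β-alanine libraries. Pooled, this was 0.0166 CPM (95% exact Poisson interval 0.000421 to 0.0927) and 0.0532 CPM (0.0145 to 0.136), and these intervals overlap. A count of 0 allows up to 0.162 CPM in control library 1, 0.153 CPM in control library 3 and 0.209 CPM in β-alanine library 1.

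Levels of the members were compared with each other as CPM per kilobase of annotated exon (GENCODE release 29), averaged over the 6 libraries. MTF1, at 5.49, and MT2A, at 5.401, came first among the members and did not differ beyond their spread between libraries, from 5.02 to 6.19 and from 5.14 to 5.63. SLC30A1 followed at 1.496, MT1E at 1.01, MT1F at 0.724 and MT1X at 0.580, each with a range over libraries that overlapped that of its neighbour in this order. MT1M, at 0.241, lay below MT1X without overlap, and MT3, at 0.0230, below MT1M without overlap. SLC30A10, at 0.00496, overlapped MT3. Short metallothionein transcripts share a locus with longer annotated forms, and the order depends on the length used. Per kilobase of the longest coding transcript, MT2A led the members at 8.93, before MTF1 at 5.53, and MT1F (1.98) and MT1X (1.91) came before SLC30A1 (1.496) and MT1E (1.45). MT1A, described next, is no member and stood above all of them on both scales, at 13.49.

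MT1A, which encodes a further cysteine-rich metallothionein of the cluster and is no member, was higher after β-alanine. It lies between MT1M and MT1F, on chromosome 16 from 56638666 to 56640087. It stood at 4.97, 3.68 and 3.93 CPM in control libraries 1, 2 and 3 and at 4.87, 7.18 and 7.40 CPM in the β-alanine libraries. β-alanine library 1 lay just below control library 1 and the other 2 treated libraries lay above all controls. MT1A rose by a log2 of 0.68 ± 0.16 (SE), with an adjusted p of 0.00263, and by 0.80 without β-alanine library 1 (adjusted p = 5.94e-06). It was called in all 6 fits that left out 1 library, with adjusted p up to 0.0341. Of all counts on the 11 metallothionein rows, pseudogenes included, MT1A took 31.5%, 25.2% and 25.1% in control libraries 1, 2 and 3 and 29.3%, 38.7% and 38.2% in the β-alanine libraries. MT2A took 43.8%, 49.2% and 46.6% in controls and 43.9%, 35.95% and 34.6% after β-alanine. In both genes β-alanine library 1 had a share within the control range. The sum over all 11 rows was 15.4 ± 0.650 CPM in controls and 18.2 ± 1.41 CPM after β-alanine (SD, n = 3 per group). It stood at 15.8, 14.6 and 15.65 CPM in control libraries 1, 2 and 3. In the β-alanine libraries it stood at 16.6, 18.6 and 19.4 CPM, so the groups did not overlap, unlike those of the sum over members. This sum was not tested. Of 14 other metallothionein genes and pseudogenes listed, 5 had a row and 2 were tested. The pseudogene MT1L, the other tested row, had a log2 change of 0.40 ± 0.38 (adjusted p = 0.465).

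Among the remaining zinc transporters, 6 tested importers rose, while 1 exporter rose and 1 fell. Of 14 ZIP importers, 11 were tested, of which 6 rose and none fell, against 14.1% rising over all genes tested, with a median log2 change of 0.19 against -0.0032. SLC39A1 (ZIP1), an importer of the plasma membrane, stood at 5.78, 6.14 and 7.44 CPM in control libraries 1, 2 and 3 and at 8.91, 10.7 and 11.3 CPM in the β-alanine libraries. It rose by a log2 of 0.70 ± 0.12 (SE, adjusted p = 0.000153), and the groups did not overlap. SLC39A14 rose by 0.21 ± 0.04, SLC39A7, which releases zinc from the endoplasmic reticulum and Golgi, by 0.19 ± 0.05, and SLC39A10 by 0.19 ± 0.05. Without β-alanine library 3 SLC39A7 was no longer called (adjusted p = 0.0519), and 4 importers rose there and without control library 2. SLC39A1 overlaps AL358472.7, a protein-coding gene on the same strand, so its count is uncertain with or without strand. It also overlaps CREB3L4 and antisense genes on the other strand, SLC39A7 overlaps RXRB, and SLC39A10 and SLC39A14 overlap pseudogenes or small RNA genes, which without strand adds uncertainty. Of 8 other ZnT exporters, 6 were tested, of which SLC30A7 rose by 0.13 ± 0.04 and SLC30A5 changed by -0.13 ± 0.04. Both carry zinc into the secretory pathway, and both overlap a gene on the other strand. Both calls were lost without β-alanine library 2, control library 1 or control library 2, and that of SLC30A5 also without β-alanine library 3. Without β-alanine library 1, 2 of these exporters fell.

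**Figure D2:**
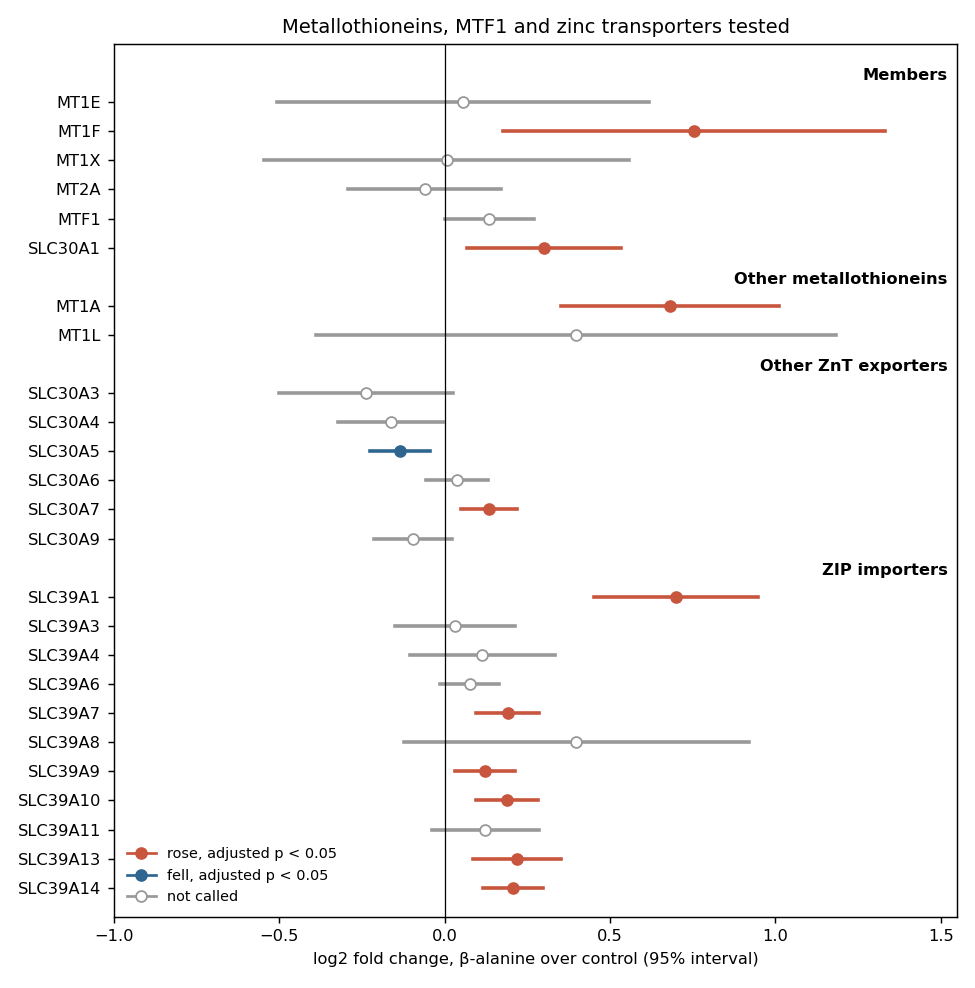
Log2 fold change of β-alanine over control with its 95% interval (horizontal axis) for each tested member, other metallothionein and zinc transporter (rows). Filled red points rose and filled blue points fell (edgeR's quasi-likelihood test, adjusted p under 0.05), and open grey points were not called. MT1F, MT1A and SLC39A1 lie farthest to the right among the genes called, at 0.75, 0.68 and 0.70, while MT2A lies at -0.06.

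Genes that handle other metals or respond to inducers shared with metallothioneins gave mixed counts. These counts are to be read against 14.1% rising and 13.8% falling over all genes tested. Of 12 copper handling genes, 3 rose and none fell, among them ATP7A, a copper exporter, by a log2 of 0.53 ± 0.06 (SE, adjusted p = 2.91e-06). ATP7A overlaps PGK1, a protein-coding gene on the same strand, so its count is uncertain with or without strand. Leaving out β-alanine library 2, control library 2 or control library 3 left ATP7A as the 1 copper gene called, and without β-alanine library 1 there were 4. Of 10 iron handling genes, TFRC, the transferrin receptor, rose by 0.12 ± 0.04 and FTH1, the ferritin heavy chain, changed by -0.25 ± 0.06, and 8 did not pass. TFRC was not called without β-alanine library 2 (adjusted p = 0.12) or control library 2 (0.103), and without β-alanine library 1 the iron genes that rose numbered 3. Of 5 manganese handling genes besides SLC30A10, SLC39A14 and ATP2C1 rose. ATP2C1 was not called without β-alanine library 2 (adjusted p = 0.167), control library 1 (0.178) or control library 2 (0.129), nor by the DESeq2 Wald test (0.0543) or after thinning to the smallest library (0.132). Of 10 genes for the glucocorticoid receptor and its targets, 3 rose and 1 fell: PER1 changed by 0.30 ± 0.04 and FKBP5 by -0.23 ± 0.06. FKBP5 was not called without β-alanine library 3 (adjusted p = 0.0623) or control library 2 (0.0745). Of 7 genes of the oxidant response, 3 rose and 1 fell: HMOX1, heme oxygenase, changed by 0.78 ± 0.11 and NQO1 by -0.27 ± 0.06. Of 7 heat shock factor targets, 5 rose and none fell. BAG3 rose by 0.30 ± 0.055, HSPB1 by 0.26 ± 0.05 and HSPA1A by 0.57 ± 0.11. HSPA1B, a near-identical copy of HSPA1A, changed by 0.18 ± 0.14 and was not called (adjusted p = 0.357). FTH1, FKBP5, PER1, NQO1, ATP2C1 and TFRC overlap other annotated genes. On the same strand, PER1 overlaps the protein-coding AC129492.3, and FKBP5 overlaps MIR5690.

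The calls of the members were close to the threshold, which the plot of adjusted p across alternatives shows. Of 14 alternatives that gave an adjusted p for MT1F, 8 kept it under 0.05, and of 15 for SLC30A1, 5 did. For MTF1 it was 1 of 15, and for MT2A 0 of 15. MT1A and SLC39A1 stayed under 0.05 in 15 of 15.

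**Figure D3:**
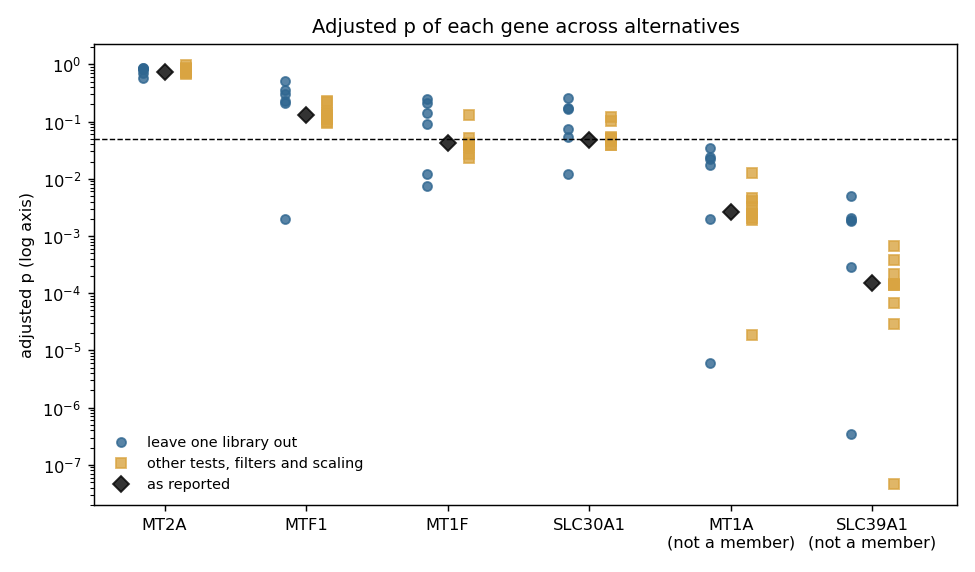
Adjusted p (vertical log axis) of 4 members and of MT1A and SLC39A1, which are no members, under each alternative. Black diamonds are the reported values, blue circles fits that leave out 1 library, yellow squares other tests, filters, scaling and thinning, and the dashed line is 0.05. MT1F and SLC30A1 sit on both sides of the line, from 0.00752 to 0.252 and from 0.012 to 0.263.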

How the data were processed

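The authors deposited raw counts of reads per gene symbol in 1 table for 6 DMS114 libraries, 3 per group, grouped by sample title. The submitters' processing notes name STAR 2.7.3a, featureCounts 2.0.1, Trimmomatic 0.39, bcl2fastq and DESeq2, with GRCh38. The sources used here give no annotation, settings or use of strand. Genes were filtered with filterByExpr, leaving 17331 of 36458, with TMM scaling. Groups were compared in edgeR 4.0.16 (R 4.3.3) by the robust quasi-likelihood test, two-sided, with no covariate, adjusted by Benjamini-Hochberg at 0.05. The test was also run on counts simulated from the same fit, with a spread set by level and no outlying library. That run does not bear on the calls of MT1F and SLC30A1. CPM uses TMM-scaled totals. The scripts used limma 3.58.1 and DESeq2 1.42.0 for alternatives. Other alternatives were scaling, filters, shrinkage, threshold, a replicate block and leaving out each library, with thinning to the smallest library added after seeing the data. All measured members are named, and of each list at most 4 called genes per direction with the smallest p. Members and lists were chosen with earlier results of these data known. Some marker values and 1 sequence are not reported here. Levels per kilobase and shared words used GENCODE release 29.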

Additional observations from a re-analysis of the deposited data

How the results depend on the processing

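With DESeq2 size factors, library totals, limma-voom or a replicate block, 2 members rose, as reported. The count was 1 with no low-count filter and with at least 1 CPM in 3 libraries, and 0 with the DESeq2 Wald test, without robust shrinkage, at an adjusted p under 0.01 and after thinning to the smallest library. It ran from 0 to 3 when 1 library was left out. SLC30A1 changed by 0.31 on the log2 scale with no low-count filter (adjusted p = 0.0527), 0.29 with 1 CPM in 3 libraries (0.0502), 0.29 with the DESeq2 Wald test (0.122), 0.30 without robust shrinkage (0.052) and 0.31 after thinning (0.101), so its call was lost in each. MT1F changed by 0.75 without robust shrinkage (0.0513) and 0.64 after thinning (0.128). The DESeq2 Wald test gave no adjusted p for MT1F, MT1E or MT1X, so its count of 0 members leaves these genes unjudged. The cause of the missing values was not tested. Leaving out 1 library gave log2 changes from 0.50 to 1.18 for MT1F, 0.21 to 0.35 for SLC30A1, 0.078 to 0.20 for MTF1, -0.092 to 0.19 for MT1E and -0.1686 to 0.1098 for MT1X. MT1E turned to -0.05 without β-alanine library 1 and to -0.092 without control library 2. MT1X turned to -0.01 without β-alanine library 2 or 3 and to -0.17 without control library 3, and stood at -0.0001 with 1 CPM in 3 libraries. Over all genes, an adjusted p under 0.01 left 1454 genes higher and 1391 lower, and 1501 to 3204 rose and 1473 to 3294 fell when 1 library was left out. Of the listed pathway genes, 24 rose and 4 fell, and 16 to 27 rose and 2 to 5 fell when 1 library was left out. Whether replicate numbers pair the libraries was not settled. Correlations of same-numbered deviations were 0.05, 0.004 and 0.072 for numbers 1, 2 and 3. Those of numbers 1 and 3 were the highest for their libraries, that of number 2 was not. β-alanine library 3 with control library 1 gave -0.072, and β-alanine library 1 with control library 3 gave -0.047. With the replicate block, 2564 genes rose and 2608 fell, against 2441 and 2389 as reported. The block gave log2 changes of 0.72 for MT1F (adjusted p = 0.0364) and 0.30 for SLC30A1 (0.0453). Depth limits MT1M, MT3 and SLC30A10, which were not tested.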

Other observations

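The metallothionein cluster lies between BBS2 and NUP93. The 3 tested genes on each side, chosen by position after the values of the cluster were seen, were NUDT21, OGFOD1 and BBS2 before it and NUP93, HERPUD1 and NLRC5 after it. None of these 6 was called by edgeR's quasi-likelihood test, with log2 changes from -0.09 in NUP93 (adjusted p = 0.109) to 0.14 in HERPUD1 (adjusted p = 0.112). Within the cluster MT1A and MT1F, which are neighbours among the rows of the table, were the 2 genes called.

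The 5 genes most alike in pattern over the 6 libraries were those with the highest Pearson's r of log2 CPM, as a description of libraries that share their depth and group. They were picked from all genes with an average log2 CPM of at least 1. With 6 libraries such a pick favours high r, and picked genes tend to share the group difference of their reference. Whether they were called is therefore no separate result. For MT2A these were WNT9A (r = 0.998), ANKRD11 (0.993), HMGN2P3, PRICKLE1 and CENPK, none of which was called. For SLC30A1 they were AL391069.2 (r = 0.998), MFSD5 (0.996), PIGV, UBAC2 and CCSER2. By edgeR's quasi-likelihood test, PIGV rose by 0.27 ± 0.08 (adjusted p = 0.0164), MFSD5 rose by 0.31 ± 0.07 on the log2 scale (adjusted p = 0.00231) and AL391069.2 by 0.87 ± 0.21 (adjusted p = 0.00405), while UBAC2 (adjusted p = 0.103) and CCSER2 (0.0944) were not called.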
